A study of Rattus norvegicus with 6 samples.

Results

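The proteasome subunit genes are described here in the livers of male Sprague-Dawley rats dosed with the flame retardant tris(2-chloroethyl) phosphate (TCEP), a chlorinated organophosphate, and in livers of vehicle animals. Members are the genes whose RefSeq transcript on the array carries a symbol that begins with Psm, a letter from a to g and a number, without the immunoproteasome subunits Psmb8, Psmb9 and Psmb10. The rule uses names alone and no measured value. It found 43 genes among 27642 genes tested: 14 of 14 subunits of the core particle, 16 of the 17 subunits of the regulatory cap whose names begin with Psm, 5 activators and inhibitors, 5 assembly chaperones, the testis subunit Psma8, and 2 genes that match by name only (Psmc3ip and Psme3ip1). No probe in these files matched Psmd11, Psmb11, Psmg1, Psmg3 or 4 further copies of subunit genes, and these were not analysed here. RefSeq lists 48 pseudogenes with such symbols, and a probe may also take up their transcripts.

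The proteasome degrades proteins that carry a ubiquitin tag. Its core is a barrel of alpha rings, which gate the entrance, and beta rings, of which the subunits encoded by Psmb5, Psmb6 and Psmb7 cut the substrate. The cap binds the ubiquitin chain, removes it, and unfolds the substrate with a ring of ATPases. In many cell types the subunit genes are transcribed together, and the transcription factor encoded by Nfe2l1 is known to raise them when proteasome activity falls short. In liver the proteasome turns over short-lived regulatory proteins and damaged enzymes, and it supplies peptides for antigen presentation.

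The TCEP group received 400 mg per kg per day and the corn oil group received the vehicle only; each held 3 animals, with 1 array per animal. All were males of the same stock, bought at 5 weeks of age and kept on a basal diet; no genetic change is labelled. Dosing lasted 9 weeks by the treatment text, whereas the series design names 28 days. All 10 hepatocyte markers listed for the check of the tissue, albumin (Alb) among them, were well above background on all 6 arrays. Their summed linear level was 6760 to 7410 in TCEP livers and 7430 to 7560 in corn oil livers, so every TCEP liver lay below every corn oil liver. The brightest probes weigh most in such a sum. Singly, 2 of the 10 markers had every TCEP value below every corn oil value, beside 7% of all genes tested. Means were higher for 4 markers and lower for 6, with a median log2 difference of -0.054 and 0 at an unadjusted p under 0.05.

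Arrays of both groups stood apart in ways that touch these genes. Replicate 2 of the corn oil group was the only array of this series on its slide and had a scan date 23 days later than the rest. It had 57.2% of its probes well above background, against 61.6% to 64.4% on the other arrays. It also carried 40 of the 64 outlier-flagged spots and gave the lowest of the 3 corn oil values for 21 of the 30 core and cap genes. TCEP replicate 3 gave the highest of the 3 TCEP values for 23 of those 30 genes. Slide and dose cannot be told apart, because the 3 dosed livers were hybridised together on a slide of their own. Markers of bile duct cells had a higher median with TCEP (log2 difference 0.50 over 5 of 6 markers). Their means were higher for 4 and lower for 1 (-0.27), beside 51.1% of all genes with higher means. Their summed linear level was 1.62 to 2.46 in TCEP livers and 1.22 to 1.55 in corn oil livers. Epcam and Spp1 had an unadjusted p under 0.05, beside 9.23% of all genes, and Sox9 was not kept by the filter on dim probes. Of 8 stellate cell markers 7 had lower means, Lrat among them at an unadjusted p under 0.05. Lower means were also found for 4 of 4 measured endothelial, 7 of 10 macrophage, 2 of 2 neutrophil and 3 of 4 erythroid markers. Higher means were found for 4 of 7 measured T and NK cell markers and 2 of 3 B and plasma cell markers. The part of any of these cell types in the results below was not tested. In whole liver, fewer cells of a type and less RNA per cell cannot be told apart.

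Values are log2 signals after subtraction of each array's 75th percentile, so that a value of 3 lies 3 log2 units above that percentile. A level is read within 1 probe only, and levels of different genes are not set against each other. TCEP was compared with corn oil by limma's two-sided test across all genes; p-values were adjusted after Benjamini and Hochberg, and a gene counted as called at an adjusted p under 0.05. No member was called, higher or lower, and 0% of all 27642 genes were called. At an unadjusted p under 0.05 there were 3 members, all with higher means in TCEP (Psma8, Psme1 and Psmd4), which is 3 of 43 beside 9.23% of all genes, 5.08% higher in TCEP and 4.16% lower in TCEP.

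The core and cap genes had small mean differences between dosed and vehicle livers. Their 30 log2 differences ran from -0.16 for Psma3 to 0.21 for Psmd4, with a median of 0.026 for the core and 0.051 for the cap, beside 0.0059 for all genes tested. All 30 had a 95% interval inside 1.5-fold in both directions, a bound chosen after the values were seen. The widest upper limit was 1.34-fold higher with TCEP (Psmd4) and the widest lower limit was 1.34-fold lower (Psma3). The same count was 30 of 30 in each of the 17 other fits of the arrays. Among all genes tested, 16576 of 27642 had an interval inside 1.5-fold. So did 74 of 77 cytosolic ribosomal protein genes, of which 62 had groups that did not overlap. The bound therefore does not set unchanged genes apart from genes with a small shift. A p that misses the threshold does not show that the levels were equal; the intervals bound the size of a difference.

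**Figure D1:**
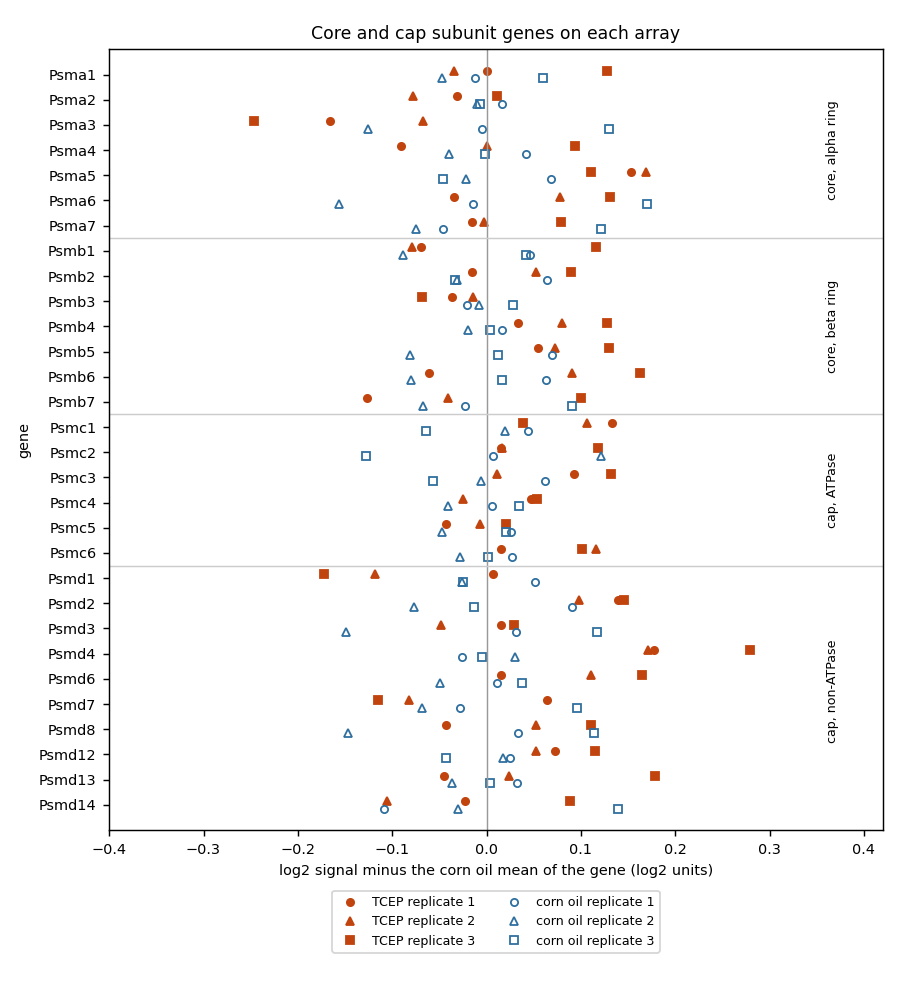
Log2 signal of each core and cap gene on each array, minus the gene's corn oil mean; filled symbols are TCEP replicates and open symbols corn oil replicates. The groups are separate for 5 of 30 genes, and TCEP replicate 3 (filled squares) gives the highest TCEP value for 23 of 30 genes.

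The 7 alpha subunits, which form the outer rings of the core and its gate, had a median log2 difference of 0.020. Psma5 had log2 signals of 4.54, 4.55 and 4.49 in TCEP livers, against 4.45, 4.36 and 4.34 in corn oil livers. The groups did not overlap, yet the difference of 0.14 ± 0.0861 (SE) had a limma adjusted p of 0.64. Psma3, the alpha gene with the lowest difference, had 4.48, 4.58 and 4.40 in TCEP livers, against 4.64, 4.52 and 4.78 in corn oil livers. The groups overlapped at TCEP replicate 2 and corn oil replicate 2, and the difference was -0.16 ± 0.11 (SE, adjusted p 0.672). A second Psma3 probe gave 0.0044, so the lower mean rests on 1 of 2 probes.

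Psma6 had log2 signals of 6.12, 6.23 and 6.29 in TCEP livers, against 6.14, 5.998 and 6.32 in corn oil livers, with the highest and the lowest values both in the corn oil group. Its difference was 0.058 ± 0.12 (SE, adjusted p 0.901). Psma4 had 6.23, 6.32 and 6.41 in TCEP livers, against 6.36, 6.28 and 6.32 in corn oil livers, a difference of 0.00105 ± 0.0928 (SE), the closest to zero of the family. On its second probe all 3 TCEP values of Psma4 lay below the corn oil values, with a difference of -0.14 ± 0.098 (SE). Psma1, Psma2 and Psma7 had differences of 0.031, -0.033 and 0.020, each with overlapping groups.

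The 7 beta subunits, which form the inner rings and hold the catalytic sites, had a median of 0.042. Psmb5, the chymotrypsin-like subunit, had log2 signals of 5.05, 5.07 and 5.12 in TCEP livers, against 5.06, 4.91 and 5.004 in corn oil livers. Corn oil replicate 1 lay among the TCEP values, and the difference was 0.0857 ± 0.0895 (SE, adjusted p 0.786). Psmb6, the caspase-like subunit, had 3.23, 3.38 and 3.45 in TCEP livers, against 3.35, 3.21 and 3.31 in corn oil livers, with TCEP replicate 1 among the corn oil values and a difference of 0.0638 ± 0.10 (SE, adjusted p 0.868). Psmb7, the trypsin-like subunit, had a difference of -0.0221 ± 0.10 (SE). Each of the 3 differences was smaller than its SE, and the sign of each changed in at least 1 alternative.

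Psmb4, a structural beta subunit, had log2 signals of 5.95, 5.996 and 6.04 in TCEP livers, against 5.93, 5.90 and 5.92 in corn oil livers. The groups did not overlap, although the difference was only 0.0804 ± 0.0836 (SE, adjusted p 0.786) and a second probe gave -0.0036. Psmb1 had 3.72, 3.71 and 3.91 in TCEP livers, against 3.84, 3.70 and 3.83 in corn oil livers, and its groups overlapped, with a difference of -0.0107 ± 0.10 (SE). Psmb2 and Psmb3 had 0.042 and -0.040, and the largest spread of a beta subunit within the groups was 0.099 log2 units (SD, pooled over both groups).

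The promoters of the cutting subunits Psmb5 and Psmb6 are shown because both hold the core of the antioxidant response element, the site bound by the factors of Nfe2l1 and Nfe2l2. Each runs from 250 bases before to 50 bases after the gene start in RefSeq's table for GRCr8, read along the gene's own strand, at chr15:32047330-32047629 (minus strand) for Psmb5 and chr10:55737638-55737937 (plus strand) for Psmb6. Capitals mark a match to TGACNNNGC or to CCAAT, the site of the factor NF-Y, on either strand; in these sequences the match is to the first motif.
Psmb5: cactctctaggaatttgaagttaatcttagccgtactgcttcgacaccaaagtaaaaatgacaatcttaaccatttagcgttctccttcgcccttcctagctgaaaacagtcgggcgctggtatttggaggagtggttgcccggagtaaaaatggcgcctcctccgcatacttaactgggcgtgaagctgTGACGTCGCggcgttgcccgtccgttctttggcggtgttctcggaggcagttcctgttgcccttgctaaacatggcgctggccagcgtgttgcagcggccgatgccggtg
Psmb6: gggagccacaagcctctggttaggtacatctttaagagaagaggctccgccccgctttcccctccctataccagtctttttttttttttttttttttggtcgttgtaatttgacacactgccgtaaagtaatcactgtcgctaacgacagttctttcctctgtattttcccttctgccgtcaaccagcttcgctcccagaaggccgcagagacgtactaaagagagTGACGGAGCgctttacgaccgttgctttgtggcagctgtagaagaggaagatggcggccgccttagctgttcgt
The match began 60 bases before the Psmb5 start and 24 bases before the Psmb6 start. The promoter of Psmb7, also a cutting subunit, held 0 matches to TGACNNNGC and 2 to CCAAT. Of 39 members with a promoter in the table, 8 held TGACNNNGC (20.5%), against 12.2% of 27457 promoters of the same length. CCAAT stood in 20 of the 39 (51.3%), against 37.7% of all promoters, and in Psmb2 a CCAAT overlapped the TGACNNNGC match. Among core and cap genes the 6 promoters with TGACNNNGC belonged to genes with a median log2 difference of 0.021, and the 20 without it to genes with 0.045. These are letter matches in a short window and say nothing about binding.

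The 6 ATPases of the cap, which unfold the substrate and open the core's gate, had a median log2 difference of 0.064, and 5 of 6 had higher means with TCEP, beside 51.1% of all genes tested. Psmc1 had log2 signals of 5.13, 5.11 and 5.04 in TCEP livers, against 5.04, 5.02 and 4.94 in corn oil livers. TCEP replicate 3 lay just below the highest corn oil value, and the difference was 0.0929 ± 0.0874 (SE, adjusted p 0.76). On a second Psmc1 probe all TCEP values lay above the corn oil values, with a difference of 0.17 ± 0.089 (SE). Psmc6 had 4.05, 4.15 and 4.14 in TCEP livers, against 4.06, 4.01 and 4.04 in corn oil livers, where TCEP replicate 1 lay below corn oil replicate 1; its difference was 0.0776 ± 0.0851 (SE, adjusted p 0.797).

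Psmc3 had log2 signals of 4.01, 3.93 and 4.05 in TCEP livers, against 3.98, 3.91 and 3.86 in corn oil livers, with a difference of 0.0783 ± 0.0895 (SE, adjusted p 0.807). Psmc5 had 6.08, 6.12 and 6.14 in TCEP livers, against 6.15, 6.08 and 6.14 in corn oil livers, with all TCEP values inside the corn oil range and a difference of -0.00987 ± 0.0838 (SE). Psmc2 and Psmc4 had 0.050 and 0.025. The ATPase genes varied little between animals, with a median SD within groups of 0.048 log2 units beside 0.18 for all genes tested. This was not particular to them: the same median was 0.061 for the beta subunits and 0.059 for the cytosolic ribosomal protein genes.

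The 10 measured non-ATPase subunits of the cap, which receive and remove the ubiquitin chain and hold the cap together, had a median of 0.046. Psmd4, a ubiquitin receptor, had log2 signals of 4.28, 4.27 and 4.38 in TCEP livers, against 4.08, 4.13 and 4.10 in corn oil livers. The 3 TCEP values exceeded every corn oil value. The ratio was 1.16-fold (95% interval 1 to 1.34), a log2 difference of 0.21 ± 0.0861 (SE) at an unadjusted p of 0.0495 and a limma adjusted p of 0.54. With quantile normalization the difference was 0.14 (unadjusted p 0.148, limma), and with each array left out in turn it lay between 0.17 and 0.23. The unadjusted p of Psmd4 was under 0.05 in 6 of 17 alternatives.

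Psmd2, the large scaffold subunit that docks ubiquitin shuttles, had log2 signals of 5.86, 5.82 and 5.87 in TCEP livers, against 5.81, 5.64 and 5.71 in corn oil livers. The groups were apart by a narrow gap, and the difference was 0.13 ± 0.0901 (SE, adjusted p 0.684); on both other Psmd2 probes they overlapped. Psmd12 had 4.96, 4.94 and 5.01 in TCEP livers, against 4.92, 4.91 and 4.85 in corn oil livers, also without overlap, at 0.08 ± 0.0834 (SE, adjusted p 0.786), and its second probe did not overlap either. Psmd6 had 4.66, 4.75 and 4.81 in TCEP livers, against 4.65, 4.59 and 4.68 in corn oil livers, with TCEP replicate 1 below corn oil replicate 3 and a difference of 0.097 ± 0.09 (SE, adjusted p 0.757); a second probe gave -0.016.

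Psmd3 had log2 signals of 2.06, 1.998 and 2.08 in TCEP livers, against 2.08, 1.90 and 2.16 in corn oil livers, a difference of -0.00121 ± 0.10 (SE). Its TCEP values lay inside the corn oil range. Psmd14, the deubiquitinase of the cap, had -0.0135 ± 0.11 (SE), and Psmd1, the other large scaffold subunit, had -0.0944 ± 0.0931 (SE). On a second Psmd1 probe all TCEP values lay below the corn oil values, with a difference of -0.21 ± 0.086 (SE). Psmd7, Psmd8 and Psmd13 had -0.044, 0.040 and 0.053, each with overlapping groups. On a second Psmd13 probe all TCEP values lay below the corn oil values, with a difference of -0.049.

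Across core and cap, 5 of 30 genes had groups that did not overlap, all with TCEP higher (Psma5, Psmb4, Psmd2, Psmd4 and Psmd12). That is 16.7%, beside 17.4% of all genes tested, 10.4% with TCEP higher and 7% with TCEP lower. Over all 43 members the count was 8 (18.6%), again all with TCEP higher. The count in either direction depended on the processing. With normexp background correction 15 of 43 members did not overlap, beside 18.1% of all genes in that fit, and 20 of 43 had higher means. With centring on the median 13 of 43 did not overlap, beside 18% of all genes, and 37 of 43 had higher means. The directions of these 15 and 13 were not counted apart. In the main fit higher means were found for 32 of 43 members, beside 51.1% of all genes tested. Several probes were kept for 24 members, and for 8 of them the probes gave differences of opposite sign.

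**Figure D2:**
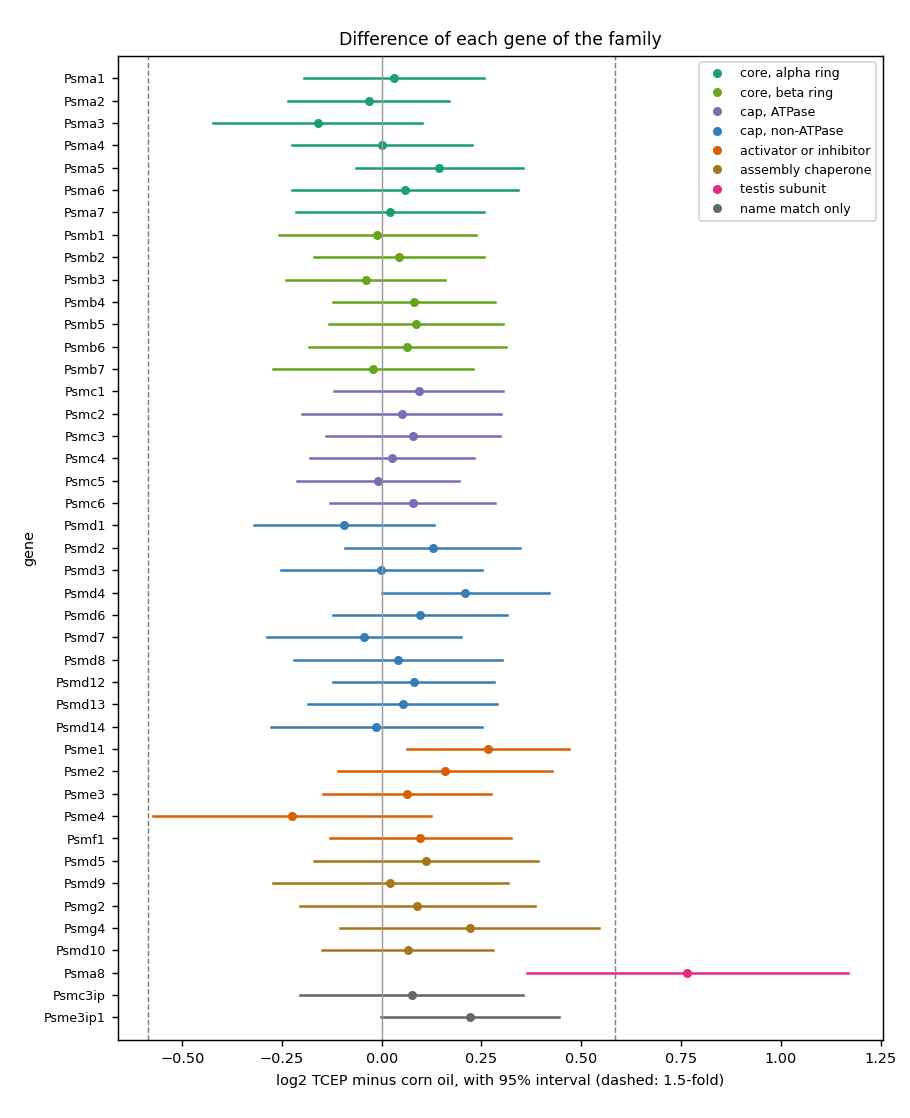
Log2 difference of each of the 43 genes, TCEP minus corn oil, with its 95% interval from limma; dashed lines mark 1.5-fold. The intervals of the 30 core and cap genes lie inside the lines, and that of Psma8 reaches beyond.

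The activators replace the cap at the end of the core, and Psmf1 encodes a regulator first known as an inhibitor of the core. Psme1, the alpha chain of the interferon-inducible activator, had log2 signals of 6.44, 6.49 and 6.41 in TCEP livers, against 6.14, 6.19 and 6.20 in corn oil livers. No corn oil value reached the lowest TCEP value. The ratio was 1.2-fold (95% interval 1.05 to 1.39), a difference of 0.27 ± 0.0838 (SE) at an unadjusted p of 0.0179 and a limma adjusted p of 0.508. A second Psme1 probe gave 0.28 ± 0.089 (SE) with no overlap between the groups. With quantile normalization the difference was 0.16 (unadjusted p 0.101, limma), and it lay between 0.25 and 0.29 with each array left out in turn. The unadjusted p was under 0.05 in 13 of 18 alternatives.

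Psme2, the beta chain of the same activator, had log2 signals of 5.91, 5.96 and 6.07 in TCEP livers, against 5.80, 5.98 and 5.69 in corn oil livers. Here corn oil replicate 2 lay above TCEP replicates 1 and 2, and the difference was 0.16 ± 0.11 (SE, adjusted p 0.681); without that array it was 0.24, and without corn oil replicate 3 it was 0.094. The promoter of Psme1, at chr15:33038721-33039020 (plus strand) in RefSeq's GRCr8 table, is shown because this gene had the smallest unadjusted p among core, cap and activator genes; it held neither motif, and so no capitals.
Psme1: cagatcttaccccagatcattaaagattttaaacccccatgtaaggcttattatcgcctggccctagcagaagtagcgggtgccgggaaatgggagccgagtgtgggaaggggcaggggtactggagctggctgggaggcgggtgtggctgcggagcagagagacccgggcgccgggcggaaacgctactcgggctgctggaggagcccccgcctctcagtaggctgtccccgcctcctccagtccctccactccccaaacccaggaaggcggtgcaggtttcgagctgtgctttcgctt
Psme3, the nuclear activator, had 3.31, 3.26 and 3.35 in TCEP livers, against 3.23, 3.30 and 3.19 in corn oil livers, with overlapping groups and a difference of 0.0633 ± 0.0867 (SE). Psme4, the activator known for degrading acetylated histones, had 2.05, 2.12 and 1.79 in TCEP livers, against 2.35, 1.99 and 2.29 in corn oil livers. Its groups overlapped at corn oil replicate 2, and the difference was -0.23 ± 0.14 (SE, adjusted p 0.655), -0.33 without corn oil replicate 2 and -0.13 without TCEP replicate 3. Of its other probes, 1 gave -0.25 and 1 gave 0.032. Psmf1 had a difference of 0.0967 ± 0.0936 (SE).

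The interferon-inducible subunits Psmb8, Psmb9 and Psmb10, which replace the cutting subunits in immune cells, are no members and give the setting for Psme1. Psmb8 had log2 signals of 2.66, 2.65 and 3.25 in TCEP livers, against 2.29, 3.11 and 2.83 in corn oil livers, and Psmb9 had 2.74, 2.60 and 2.88 in TCEP livers, against 2.28, 2.91 and 2.59 in corn oil livers. In the corn oil group replicate 2 was the highest for each, and the groups overlapped for both. Psmb10 had 3.95, 3.97 and 3.97 in TCEP livers, against 3.85, 4.29 and 3.96 in corn oil livers, a difference of -0.0702 ± 0.13 (SE), beside 0.11 ± 0.26 for Psmb8 and 0.15 ± 0.18 for Psmb9. In the list of 9 such genes, 8 were measured and 0 passed in either direction; the peptide transporter Tap1 had 0.14 ± 0.15 and the interferon regulatory factor Irf1 -0.20 ± 0.30 (SE).

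All 5 measured assembly chaperones, which build the core and the cap and leave the finished particle, had higher means with TCEP, as 51.1% of all genes did. Their median was 0.089, and 0 passed. Psmg4, a chaperone of the alpha ring, had log2 signals of 3.28, 3.37 and 3.67 in TCEP livers, against 3.22, 3.11 and 3.33 in corn oil livers. TCEP replicate 3 stood above the rest, and the difference of 0.22 ± 0.13 (SE, adjusted p 0.645) was 0.11 without that array; 2 further probes gave 0.16 and 0.14, each without overlap. Psmd5, a chaperone of the cap's ATPases, had 1.13, 1.35 and 1.22 in TCEP livers, against 1.21, 0.96 and 1.20 in corn oil livers, with a difference of 0.11 ± 0.12 (SE).

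Psmd10, the cap chaperone also called gankyrin, had log2 signals of 1.66, 1.61 and 1.67 in TCEP livers, against 1.56, 1.52 and 1.66 in corn oil livers, with the highest corn oil value inside the TCEP range, and a difference of 0.0647 ± 0.0879 (SE). Psmd9 had 4.58, 4.73 and 4.58 in TCEP livers, against 4.76, 4.65 and 4.42 in corn oil livers, a difference of 0.0213 ± 0.12 (SE) with corn oil values on both sides of the TCEP values. Psmg2 had 0.0888 ± 0.12 (SE).

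Psma8, the alpha subunit known from the testis, had the largest difference of the family. Its log2 signals were -3.13, -3.01 and -3.39 in TCEP livers, against -4.04, -4.13 and -3.66 in corn oil livers, far below the array's 75th percentile on every array. The groups did not overlap. The ratio was 1.7-fold (95% interval 1.29 to 2.25), a difference of 0.77 ± 0.17 (SE) at an unadjusted p of 0.0033 and a limma adjusted p of 0.436. The probe was well above background on all 6 arrays, but the other 3 probes of Psma8 were not kept by the filter on dim probes. With normexp background correction, which adds an offset of 50 before the log, the Psma8 difference was 0.30. Psmc3ip, a meiotic recombination factor, and Psme3ip1, a partner of the Psme3 protein, had 0.0752 ± 0.12 and 0.22 ± 0.0919 (SE); the Psme3ip1 groups did not overlap (adjusted p 0.54).

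**Figure D3:**
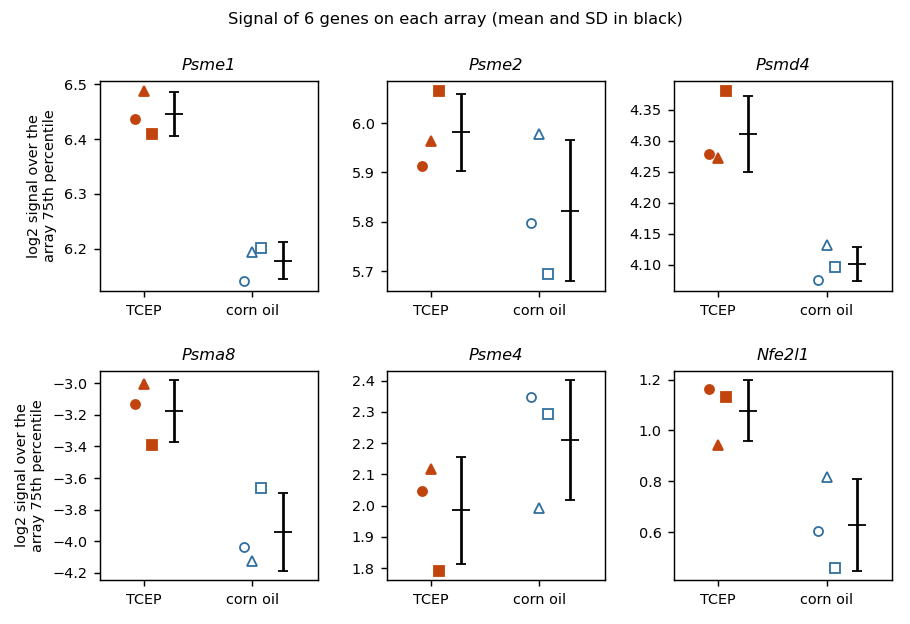
Log2 signal over the array's 75th percentile for 6 genes on each array, TCEP left and corn oil right (circles, triangles and squares are replicates 1, 2 and 3), with the mean and SD of 3 animals in black; the vertical axes differ and do not start at zero. Groups do not overlap for Psme1, Psmd4, Psma8 and Nfe2l1, and corn oil replicate 2 lies among the TCEP values for Psme2 and Psme4.

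Of 11 measured genes that control the subunit genes, 1 had an unadjusted p under 0.05, beside 9.23% of all genes, and 0 were called. Nfe2l1 itself had log2 signals of 1.16, 0.94 and 1.13 in TCEP livers, against 0.61, 0.82 and 0.46 in corn oil livers. The 3 TCEP values exceeded every corn oil value, a ratio of 1.37-fold (95% interval 1.1 to 1.69) and a difference of 0.45 ± 0.13 (SE, unadjusted p 0.0119, limma adjusted p 0.482). Without corn oil replicate 3 it was 0.37 and without corn oil replicate 2 it was 0.54. Of the 11 measured genes in this list, 4 had higher means, and the median was -0.035. Among these 4 was Maff at 0.80 ± 0.84 (SE), with an SD of 1.79 in corn oil livers. Its probe passed the filter only through the TCEP group (well above background on 2 of 3 corn oil arrays). Ngly1, the glycanase that activates the Nfe2l1 protein, had 0.14 ± 0.10 (SE), with other Ngly1 probes from -0.18 to 0.19. Nfya, a subunit of NF-Y, had 0.30 ± 0.16 (SE) on a probe that passed the filter only through the TCEP group (well above background on 2 of 3 corn oil arrays). With normexp background correction and its offset of 50 the Nfya difference was 0.039.

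Genes of ubiquitin supply and shuttling gave 0 called genes. Ubb, a polyubiquitin gene, had a difference of 0.019 ± 0.0981 (SE), and Rps27a, which encodes ubiquitin fused to a ribosomal protein, had 0.096 ± 0.0831 (SE). Over the 20 measured genes of that list, 12 had higher means and the median was 0.034. The autophagy receptor Sqstm1 had 0.18 ± 0.11 and the shuttle Ubqln2 0.16 ± 0.12 (SE), with a second Ubqln2 probe at -0.16 and Sqstm1 probes from -0.15 to 0.21.

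Partners of the particle whose names do not begin with Psm had higher means in 8 of 8 measured genes, beside 51.1% of all genes, with a median of 0.093 and 0 called. Ublcp1, a phosphatase of the nuclear proteasome, had 0.12 ± 0.11, the cap's deubiquitinase Usp14 0.1 ± 0.0921 and the import factor Akirin2 0.13 ± 0.13 (SE); a second Ublcp1 probe gave -0.20. The core's maturation factor Pomp had 0.0399 ± 0.11, and the cap subunits Adrm1 and Sem1 had 0.0321 ± 0.0985 and 0.0204 ± 0.0925 (SE), in the range of the members above.

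Genes of the cytosolic ribosome, the other large complex of housekeeping genes, are given for comparison. Of 77 ribosomal protein genes 74 had higher means with TCEP and 62 had groups that did not overlap (80.5%), with a median of 0.19. An unadjusted p under 0.05 was found for 22 of the 77, beside 9.23% of all genes, and 0 were called. Core and cap had 20 of 30 higher means and 5 of 30 without overlap; over all genes tested these shares were 51.1% and 17.4%. Rpl32, Rps18 and Rpl12 had the smallest unadjusted p of that list, with differences of 0.44 ± 0.0889, 0.34 ± 0.0885 and 0.32 ± 0.0896 (SE). The median SD within groups was 0.067 log2 units for core and cap and 0.059 for the ribosomal genes. The lists themselves were not tested against each other.

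Array by array, the core median lay at -0.033, -0.0012 and 0.11 in TCEP livers, against 0.016, -0.057 and 0.022 in corn oil livers, as log2 differences from the corn oil mean. Only TCEP replicate 3 stood above the corn oil range. For the cap the medians were 0.015, 0.020 and 0.11 in TCEP livers, against 0.027, -0.034 and 0.0027 in corn oil livers, with the same array alone above the corn oil range. For the ribosomal genes the medians were 0.15, 0.17 and 0.25 in TCEP livers, against -0.0040, -0.017 and 0.030 in corn oil livers, so that all 3 TCEP arrays lay above. The median over all genes tested stayed between -0.013 and 0.028 on every array.

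**Figure D4:**
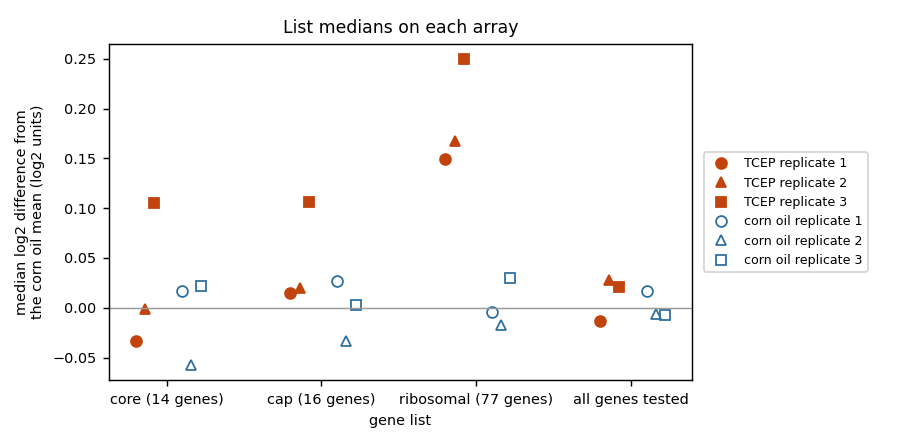
Median log2 difference from the corn oil mean on each array, for core, cap and ribosomal protein genes and for all genes tested; filled symbols are TCEP and open symbols corn oil. TCEP replicate 3 alone lies above the corn oil arrays for core (0.11) and cap (0.11), while all 3 TCEP arrays do so for the ribosomal genes.

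The sign of the small shift in core and cap depended on scaling. With quantile normalization the core median was -0.0598 and the cap median -0.00693. The fit with normexp background correction also ended in quantile normalization, so it is no separate check of that step. Its core and cap medians were -0.0746 and -0.00921. With centring on the median they were 0.048 and 0.074. Without TCEP replicate 3 the core median was -0.013 and the cap median 0.013, and within the first scan day, without corn oil replicate 2, they were -0.018 and 0.049. The ribosomal median stayed between 0.11 and 0.21 in all of these fits.

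**Figure D5:**
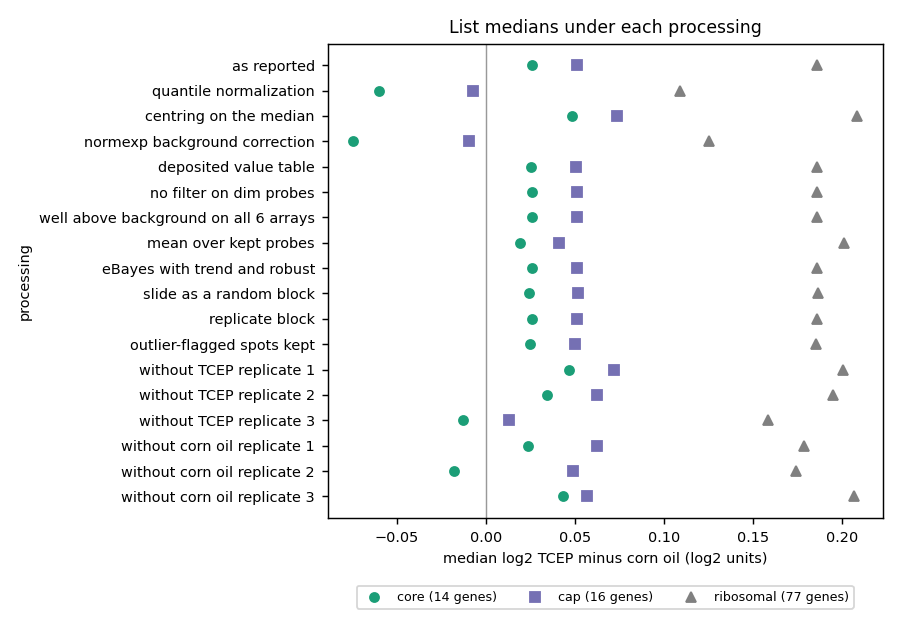
Median log2 difference, TCEP minus corn oil, of core (circles), cap (squares) and ribosomal genes (triangles) under each processing of the arrays. Core and cap lie on both sides of zero, with quantile normalization at -0.0598 and -0.00693, and the ribosomal genes stay above it.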

How the data were processed

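Liver RNA of 6 rats was hybridised to 1-colour Agilent arrays, 1 array per animal. Per the file headers, the spot intensity was read by Agilent Feature Extraction, version 10.7.1.1 (the submitters' processing notes give 10.7), which subtracts background and detrends within the array; outlier and background flags of 0 or 1 per spot are deposited beside it. The authors' deposited value table holds the ratio of each signal to its array's 75th percentile, read from the values; other steps: not given in the sources used here. The log2 of the deposited processed signal minus that percentile was used. Control and outlier-flagged spots were left out, a probe was kept if every array of 1 or both groups had it well above background, and the probe with the highest mean stood for a gene. This left 37043 probes for 27642 names, of which 10982 carry a RefSeq symbol. Tests were limma 3.58.1 in R 4.3.3, checked on simulated data; precision is limited by 3 animals per group. Same-numbered arrays did not deviate together (r = -0.048, -0.17 and -0.015 for numbers 1, 2 and 3), so numbers were not taken as pairs. Every member is named; values on every array are given for the 3 smallest unadjusted p and the difference nearest zero in each role list, and for members without overlap at an unadjusted p under 0.05. In other lists the 3 smallest p are named, except for an item not reported here. Ubb, Rps27a, Pomp, Adrm1, Sem1 and the immunoproteasome subunits were added for their roles, and Maff because its probe passed the filter only through the TCEP group. Members and lists were chosen with earlier results of these data known. Alternatives covered scaling, background, filters, probes, blocks and left-out arrays. The normexp fit started from the median spot signal and its background, added an offset of 50 before the log, and ended in quantile normalization.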

Additional observations from a re-analysis of the deposited data

How the results depend on the processing

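No member was called in any of 17 other fits, no value past a threshold reversed, and all 30 core and cap intervals stayed inside 1.5-fold. Of 43 members 17 kept their sign in every alternative and 26 did not; the cause was not tested. With quantile normalization 20 members had higher means (51.7% of all genes) and the medians were -0.00573 (all members), -0.0598 (core), -0.00693 (cap), -0.083 (alpha), -0.059 (beta), -0.000696 (ATPase), -0.00853 (non-ATPase), 0.037 (activators) and 0.11 (ribosomal). With normexp background correction 8 members had an unadjusted p under 0.05 (10.8% of all genes) and 15 did not overlap (18.1%), both counted in either direction. In that fit 20 members had higher means (50.2% of all genes). Its medians were -0.00918 (all members), -0.0746 (core), -0.00921 (cap), -0.11 (alpha), -0.049 (beta), -0.0277 (ATPase), -0.00183 (non-ATPase), -0.048 (ubiquitin genes) and 0.13 (ribosomal). Centring on the median left 13 members without overlap (18% of all genes). Without the filter on dim probes 1 member had an unadjusted p under 0.05 (5.89% of all genes), and with the mean over kept probes the partner median was 0.036. With the replicate number as a block 1 member (Psma8) had an unadjusted p under 0.05 (6.86% of all genes), and the block changed no adjusted call. Leaving out each array in turn gave 1 to 3 members at that p, 10 to 17 without overlap (fewer samples separate more easily; 24.6% to 32.3% of all genes), and medians of -0.019 to 0.061 (alpha), 0.014 to 0.074 (beta), 0.034 to 0.072 (ATPase), 0.0070 to 0.060 (ubiquitin genes), -0.0022 to 0.083 (non-ATPase), 0.041 to 0.16 (chaperones), 0.044 to 0.13 (activators), 0.037 to 0.11 (partners) and -0.10 to 0.016 (control genes). Depth of an array is its signal over background, and its part in these values was not tested. The low Psma8 value moved most, to 0.30 with normexp. The offset of 50 in that fit shrinks log differences of dim probes, and its share in this move was not tested.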
